A study of Mus musculus with 30 samples.

Results

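The genes of the proteasome were followed across 6 groups of cultured 3T3-L1 cells, which are mouse preadipocytes that can become adipocytes in a dish. Members were the protein-coding genes with symbols running from Psma to Psmg followed by a digit and with more than 14 counts over the 30 libraries. This gave 48 of the 20139 genes tested, out of 54232 genes in the count table. They comprise 17 genes of the core particle (7 alpha and 10 beta), 17 of the cap, 5 activators or inhibitors, 7 assembly chaperones and 2 others. Psmb11 with 7 counts and Psma8 with 1 count in all, the forms of the core used in thymus and testis, did not pass. The symbol also matched 4 pseudogenes, which were left out.

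The proteasome is the barrel-shaped protease that takes apart proteins marked with ubiquitin. Its core is a stack of rings, with alpha subunits as the gate and beta subunits holding the active sites, and the cap docked on the gate binds ubiquitin chains, removes them and unfolds the substrate with a ring of ATPases. Other activators open the gate without ubiquitin, and oxidized proteins are known substrates of the core. Cells raise many subunits together through the transcription factor Nfe2l1, and interferon exchanges the catalytic beta subunits for inducible ones.

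All groups were kept in adipogenic medium for 5 days. The Control group received nothing more, and the others received IS (indoxyl sulfate, a uremic toxin) at 100 µM, oxLDL (oxidized low density lipoprotein) at 50 µg/mL, pNaKtide at 0.7 µM, IS with pNaKtide, or oxLDL with pNaKtide, with 5 libraries in each group. pNaKtide is a cell permeant peptide made to block oxidant signaling through the Na,K-ATPase and Src. The labels give 5 days of treatment, while the study's methods give a shorter exposure. Labels and methods both name adipose tissue for the RNA extraction, although the methods describe these groups as cultured cells. Nothing in the labels says that libraries of a group came from separate cultures, so p-values measure the spread between these libraries.

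Libraries held between 6945498 and 15159877 counts. The defining adipocyte genes were abundant, with 872992 counts of Fabp4 and 340688 of Adipoq in all. Preadipocyte and fibroblast markers were present too, from 738717 counts of Col3a1 and 556165 of Col1a1 down to 921 of Lum. Of 6 macrophage markers Ptprc and Itgam were at 0, Adgre1 at 4, Csf1r at 65, Cd68 at 1569 and Cd14 at 1647 counts in all. In a principal component analysis Control replicate 1 (25.7 on the first component) lay outside the range of the other Control libraries, -29.8 to -6.49, and inside that of oxLDL, 14.7 to 41.8. IS replicate 4 (-28.2) lay apart from the other IS libraries, 23.1 to 36.7. Of 60 pairs of libraries within groups, 4 were closest to counting noise, for which the value is 1 (chi-square per degree of freedom 1.301 to 1.82, against 2.01 to 57.1 in the others). These were Control replicates 2 and 4, pNaKtide replicates 1 and 2 and replicates 4 and 5, and replicates 3 and 4 of IS with pNaKtide, and whether they are separate cultures is not known. Counts of calls without the libraries that lay apart, and with the 4 pairs each summed and counted as 1 library, are given where they differ. In RNA from whole cultures, fewer cells of a type and less RNA per cell cannot be told apart.

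Members took 0.607% of the scaled counts on average in Control libraries. Per length, as FPKM, the highest mean Control levels were those of Psmb5 (144.7 ± 31.6, SD, n = 5), Psma6 (140.8 ± 18.7) and Psmd2 (135.3 ± 4.81), the last a scaffold of the cap. These neighbours in the order differed by less than their spread. The median FPKM was 66.4 over the alpha genes, 69.0 over the cap ATPases, 35.1 over the cap lid and 12.1 over the assembly chaperones. Among activators Psme2 stood at 60.1 and Psme4 at 8.48. The inducible subunits Psmb8 (1.01) and Psmb9 (0.807) were the lowest of all members, and Psmb10, the other inducible subunit, reached 19.1.

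**Figure D1:**
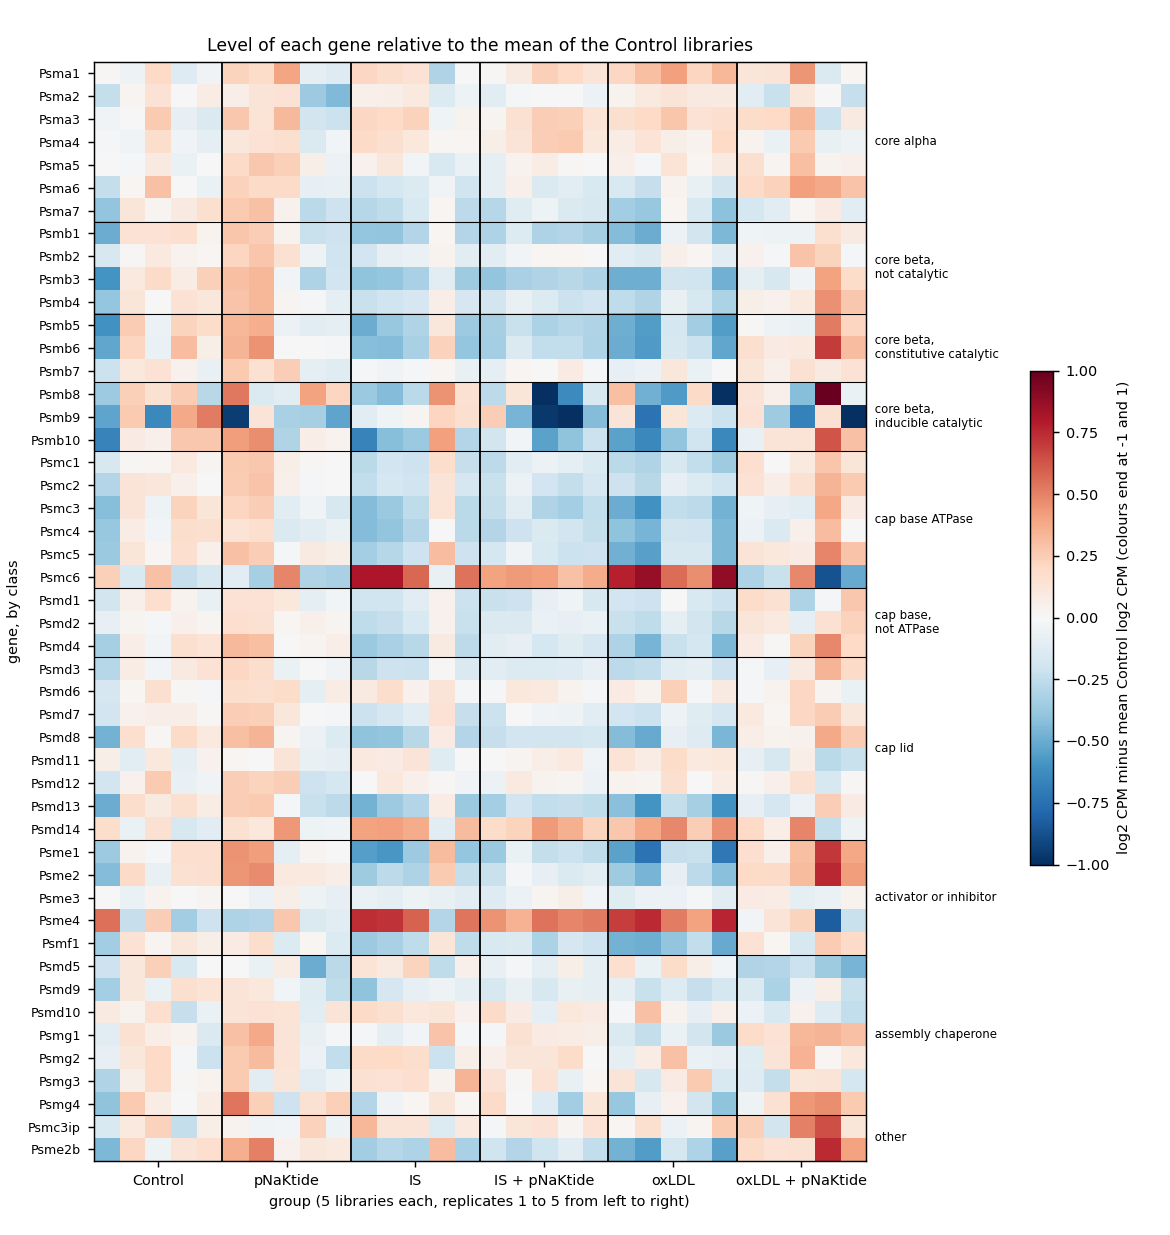
Level of each of the 48 genes (rows, by class) in each of the 30 libraries (columns, by group, replicates 1 to 5 from left to right), as the log2 CPM minus the mean log2 CPM of the 5 Control libraries, with colours ending at -1 and 1. Psmc6 and Psme4 stand out as red among mostly blue rows in the oxLDL libraries, and Control replicate 1 and IS replicate 4 differ from the other libraries of their groups.

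Promoter sequences were looked at because many members moved together. RefSeq promoters of GRCm38.p6, running from 250 bases before to 50 after a gene's start, were found for 41 of the 48 members, as 44 sequences. The antioxidant response element was searched for as TGACNNNGC and the CCAAT box as CCAAT, on both strands, and neither pattern contains the other. TGACNNNGC was present in 6 of 44 member promoters (13.6%) and in 12.4% of all 32851 promoters. CCAAT was present in 14 of 44 (31.8%) and in 37.4% of all. The genes with TGACNNNGC were Psmb5, Psmb6, Psmc6, Psmd9, Psmd12 and Psme4, of which Psmb5 and Psmb6 fell with oxLDL and Psmc6 and Psme4 rose. These windows show, 5′ to 3′ on the strand of the gene, 4 promoters with TGACNNNGC from genes that moved in opposite directions and 2 with CCAAT, with capitals marking the matches or their reverse complements. A match describes the letters alone.
Psmb5, chr14:54617976-54618095, minus strand: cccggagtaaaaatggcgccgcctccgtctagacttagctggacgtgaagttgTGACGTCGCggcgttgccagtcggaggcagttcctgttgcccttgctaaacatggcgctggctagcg
Psmb6, chr11:70525257-70525376, plus strand: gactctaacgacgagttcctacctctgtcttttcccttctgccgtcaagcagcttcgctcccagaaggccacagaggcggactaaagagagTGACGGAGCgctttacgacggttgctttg
Psme4, chr11:30771675-30771794, plus strand: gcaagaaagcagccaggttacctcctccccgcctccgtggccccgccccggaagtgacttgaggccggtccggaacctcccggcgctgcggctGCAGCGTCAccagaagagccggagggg
Psmc6, chr14:45329574-45329693, plus strand: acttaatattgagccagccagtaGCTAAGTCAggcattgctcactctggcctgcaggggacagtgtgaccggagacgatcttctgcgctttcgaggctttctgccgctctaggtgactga
Psma1, chr7:114276147-114276266, minus strand: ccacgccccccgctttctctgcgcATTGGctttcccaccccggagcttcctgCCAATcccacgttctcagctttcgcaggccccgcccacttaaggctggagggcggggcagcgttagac
Psmb3, chr11:97703284-97703403, plus strand: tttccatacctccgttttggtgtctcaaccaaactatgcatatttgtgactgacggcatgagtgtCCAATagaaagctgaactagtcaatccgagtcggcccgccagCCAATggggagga

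The comparison of oxLDL with Control asks how proteasome genes respond to an oxidized lipoprotein. Most called members fell: 21 were lower and 4 were higher with oxLDL, against 18% lower and 18.1% higher among all genes tested (36% called). The median log2 fold change was -0.19 over the 48 members and 0.04 over all genes. In levels of CPM (TMM-scaled counts relative to library size), the summed core went from 2267 ± 249.8 (SD, n = 5) to 2079 ± 146, a difference smaller than the SD of the Control libraries, and the cap moved from 3032 ± 246 to 2684 ± 152. Groups did not overlap for 5 members, Psmc1 and Psmd2 lower and Psmc6, Psma1 and Psmd14 higher, where 8.35% of all genes did not overlap.

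Of the alpha ring, which forms the gate, 1 gene rose, 1 fell and 5 were not called, and with the length and GC offsets described further on none rose and 3 fell. Psma1 measured 243, 233, 277, 221 and 235 CPM in the Control libraries and 279, 296, 321, 279 and 303 with oxLDL. All oxLDL libraries were above all Control libraries (log2 fold change 0.29, SE 0.11, edgeR adjusted p = 0.0417), and the call was lost without Control replicate 4 (adjusted p = 0.113). Psma7 went the other way, with 156, 223, 209, 217 and 228 CPM in Control and 161, 157, 208, 184 and 154 with oxLDL (log2 fold change -0.26, SE 0.11, edgeR adjusted p = 0.0733). The groups overlapped through Control replicate 1, and the call was lost in 7 of 10 fits that left out 1 library, without Control replicate 2, 3, 4 or 5 or oxLDL replicate 1, 2 or 5 (largest adjusted p = 0.177). Psma6 stood at 176 ± 23.8 and 161 ± 11.7 CPM and was not called, except without Control replicate 1 (adjusted p = 0.0888) and with the offsets.

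In the beta ring 6 of 10 genes fell and none rose. With the offsets none rose, and 2 of 3 catalytic, 2 of 4 structural and 0 of 3 inducible genes fell. The call of Psmb5 was then lost and Psmb7 was called lower. Psmb5, the chymotrypsin-like site and the target of proteasome inhibitors, measured 84.8, 153, 124, 150.0 and 146 CPM in Control libraries and 92, 87.3, 114, 101 and 87.4 with oxLDL. Control replicate 1 was the lowest of all, and the other Control libraries were above every oxLDL library (log2 fold change -0.45, SE 0.14, edgeR adjusted p = 0.0176). Psmb6, the caspase-like site, measured 117, 193, 159.8, 207 and 174 and 118, 113, 149, 144 and 116 CPM. The same Control library lay within the oxLDL range (log2 fold change -0.41, SE 0.14, edgeR adjusted p = 0.0303), and without Control replicate 4 the call was lost (adjusted p = 0.113). Psmb7, the trypsin-like site, measured 107, 133, 138, 128 and 118 and 118, 119, 134, 118 and 124 CPM, which overlapped throughout (log2 fold change -0.02, SE 0.08, edgeR adjusted p = 0.855).

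The structural beta genes Psmb3 and Psmb4 fell as well. Psmb3 measured 114, 185, 197, 182 and 204 CPM in Control and 123, 124, 152, 151 and 124 with oxLDL (log2 fold change -0.39, SE 0.13, edgeR adjusted p = 0.0267), and Control replicate 1 was again the lowest. Psmb4 stood at 185 ± 26 and 157 ± 11.3 CPM (log2 fold change -0.23, SE 0.10, edgeR adjusted p = 0.0813), a call lost in 7 of 10 fits without 1 library, the same libraries as for Psma7 (largest adjusted p = 0.198). Psmb1 fell by 0.33 (adjusted p = 0.0336), and Psmb2 at -0.06 was not called.

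Of the inducible subunits, which replace the catalytic ones in the immunoproteasome, Psmb10 fell. It measured 20.3, 34.1, 33.3, 38.7 and 38.7 CPM in Control and 22.2, 20.6, 24.5, 28 and 20.6 with oxLDL, and every Control library but replicate 1 was above the oxLDL range (log2 fold change -0.51, SE 0.18, edgeR adjusted p = 0.0325). Psmb8 lay between 1.37 and 3.39 CPM in both groups (log2 fold change -0.23, SE 0.25, edgeR adjusted p = 0.526), and Psmb9 between 1.70 and 4.07 CPM (log2 fold change -0.22, SE 0.24, edgeR adjusted p = 0.529), with standard errors above that of Psmb10. In FPKM, Psmb8 was 0.712% ± 0.127 of Psmb5 in Control and 0.804% ± 0.305 with oxLDL, and Psmb9 was 0.891% ± 0.218 and 1.03% ± 0.213 of Psmb6. Psmb10 went the other way, from 52.9% ± 10.9 of Psmb7 in Control to 38.0% ± 5.59 with oxLDL. Reads of Psmb9 and Tap1, which share 212 exon bases on opposite strands, and of Psmb7 and Nek6, which share 405, may not be told apart, since the strand setting of the counting is not given.

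**Figure D2:**
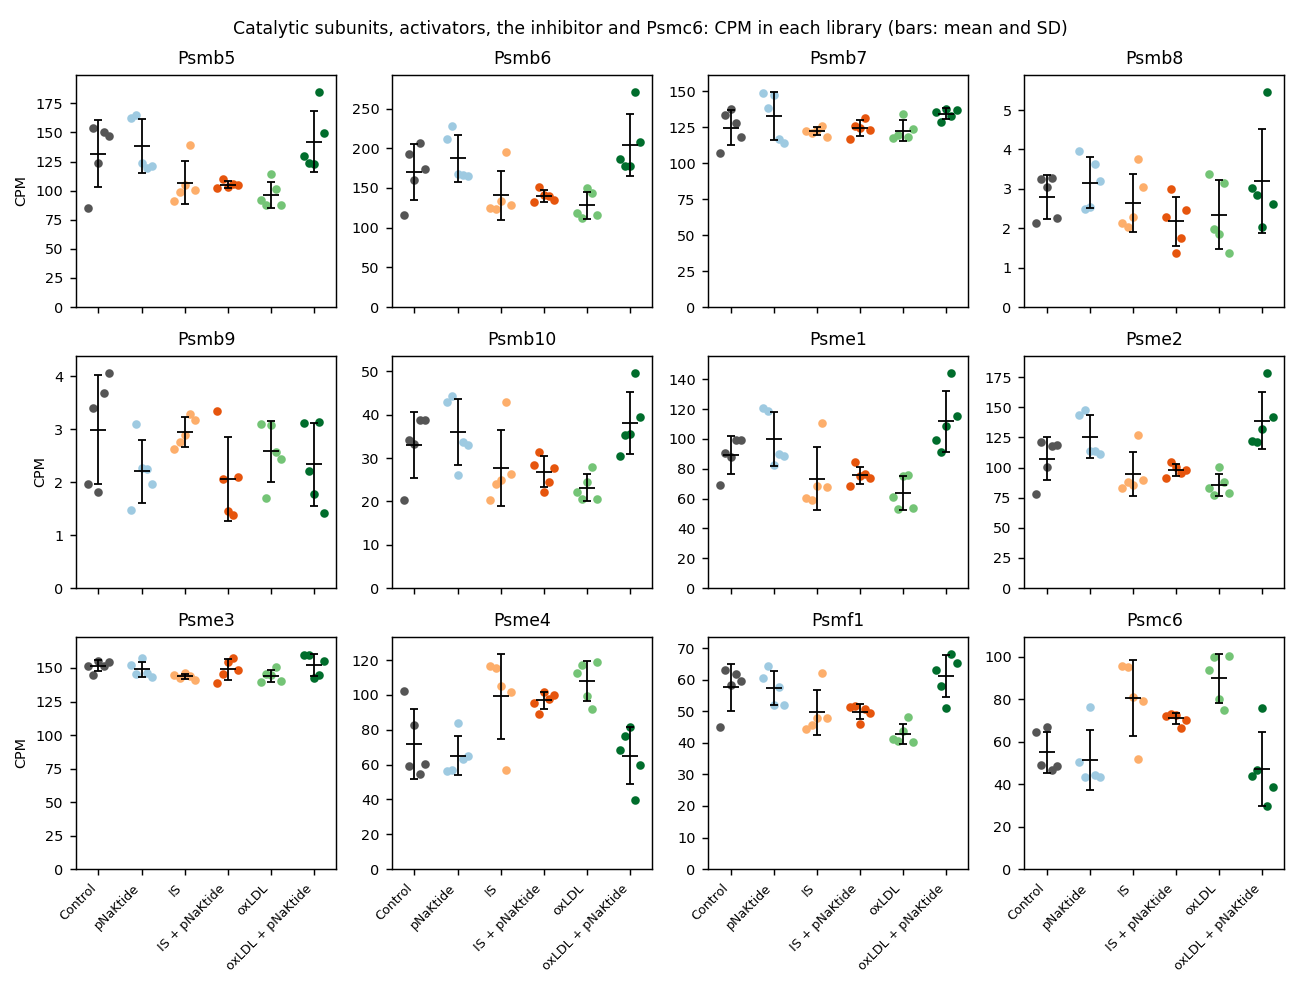
CPM (vertical axis, from 0) of 12 genes in each library of the 6 groups (points), with bars for the mean and SD. Psmb5, Psmb6, Psmb10, Psme1, Psme2 and Psmf1 are low with oxLDL and high with oxLDL and pNaKtide, Psme4 and Psmc6 run the other way, and the mean of Psme3 lies between 144 and 152 CPM in every group.

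In the cap base, which holds the ATPase ring, 6 of 9 genes fell and 1 rose. Psmc5, an ATPase, measured 127, 179, 167, 185 and 171 CPM in Control and 118, 113, 147, 147 and 121 with oxLDL, overlapping through Control replicate 1 (log2 fold change -0.36, SE 0.11, edgeR adjusted p = 0.0204). Psmc1, Psmc3, which shares 215 exon bases with Slc39a13 on the other strand, and Psmc4 fell by 0.27, 0.43 and 0.35 (adjusted p = 0.019, 0.0122 and 0.0146), and Psmc2 at -0.19 was not called, except without Control replicate 1 (adjusted p = 0.0167) or oxLDL replicate 3, by DESeq2, by limma, with the offsets or with more than 14 counts in every library. Psmd4, a ubiquitin receptor, measured 143, 188, 176, 200.2 and 197 and 145, 130.2, 154, 159 and 131 CPM (log2 fold change -0.33, SE 0.10, edgeR adjusted p = 0.0185), and Control replicate 1 again fell within the oxLDL range. Psmc6, the remaining ATPase, rose from 64.3, 49.1, 66.8, 46.4 and 48.7 to 93.4, 99.6, 80.2, 74.9 and 100.4 CPM. Every oxLDL library exceeded every Control library (log2 fold change 0.70, SE 0.18, edgeR adjusted p = 0.00998), the highest log2 fold change among the members without the offsets. With them Psmc6 was not called.

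In the lid, which removes ubiquitin chains, 3 of 8 genes fell and 1 rose. Psmd13 measured 102, 162, 153, 160.3 and 152 CPM in Control and 107, 95, 122, 114 and 94.5 with oxLDL (log2 fold change -0.45, SE 0.12, edgeR adjusted p = 0.0108); it shares 342 exon bases with Sirt3 on the other strand. Psmd8 stood at 176 ± 29.9 and 140.2 ± 19.6 CPM (log2 fold change -0.33, SE 0.12, edgeR adjusted p = 0.0356), and was not called without Control replicate 2 or 4 or oxLDL replicate 2 (largest adjusted p = 0.109). Psmd14, the deubiquitinase of the lid, rose, from 103, 86.7, 101, 81.5 and 84.6 to 109, 119, 127, 108 and 125 CPM with no overlap (log2 fold change 0.36, SE 0.11, edgeR adjusted p = 0.0194). Psmd11 stood at 111 ± 7.43 and 120.1 ± 3.41 CPM and was not called (adjusted p = 0.235).

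Of the 4 activators and the inhibitor Psmf1, 3 genes fell, 1 rose and 1 was not called. Psme1 and Psme2 encode the subunits of the PA28αβ ring that is induced by interferon. Psme1 measured 68.8, 90.6, 87.9, 99.3 and 99.5 CPM in Control and 60.9, 52.9, 75.3, 75.8 and 53.9 with oxLDL (log2 fold change -0.49, SE 0.15, edgeR adjusted p = 0.0194). Psme2 measured 78.4, 121, 101, 118 and 119 and 82.9, 76.9, 100.3, 88.3 and 79.1 CPM (log2 fold change -0.33, SE 0.12, edgeR adjusted p = 0.0474), and its call was lost without Control replicate 2, 4 or 5 or oxLDL replicate 2 or 5 (largest adjusted p = 0.133). For Psme1 and Psme2 alike, Control replicate 1 was the lowest Control library and lay inside the oxLDL range. Psme2b, a retrocopy of Psme2 whose reads may be shared with it, fell too (log2 fold change -0.43, SE 0.13, edgeR adjusted p = 0.0189) and is uncertain for that reason.

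Psme4, which encodes PA200, rose. It measured 102, 59.4, 82.7, 54.9 and 60.5 CPM in Control and 113, 117, 99.6, 92.2 and 119 with oxLDL, and Control replicate 1 was inside the oxLDL range (log2 fold change 0.59, SE 0.18, edgeR adjusted p = 0.0169). Psmf1, the inhibitor PI31, fell, from 44.9, 63.1, 58.4, 61.9 and 59.7 to 41.2, 40.7, 43.6, 48.2 and 40.4 CPM, overlapping through Control replicate 1 (log2 fold change -0.43, SE 0.10, edgeR adjusted p = 0.00783). Psme3, the nuclear PA28γ, stayed between 139 and 155 CPM in both groups (log2 fold change -0.07, SE 0.06, edgeR adjusted p = 0.414). Among the assembly chaperones Psmg1 alone was called, at 27.5 ± 2.33 and 23.9 ± 1.84 CPM (log2 fold change -0.20, SE 0.09, edgeR adjusted p = 0.0869), and the call held in 3 of 10 fits without 1 library, those without Control replicate 1 or 5 or oxLDL replicate 3 (largest adjusted p = 0.228 in the others).

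**Figure D3:**
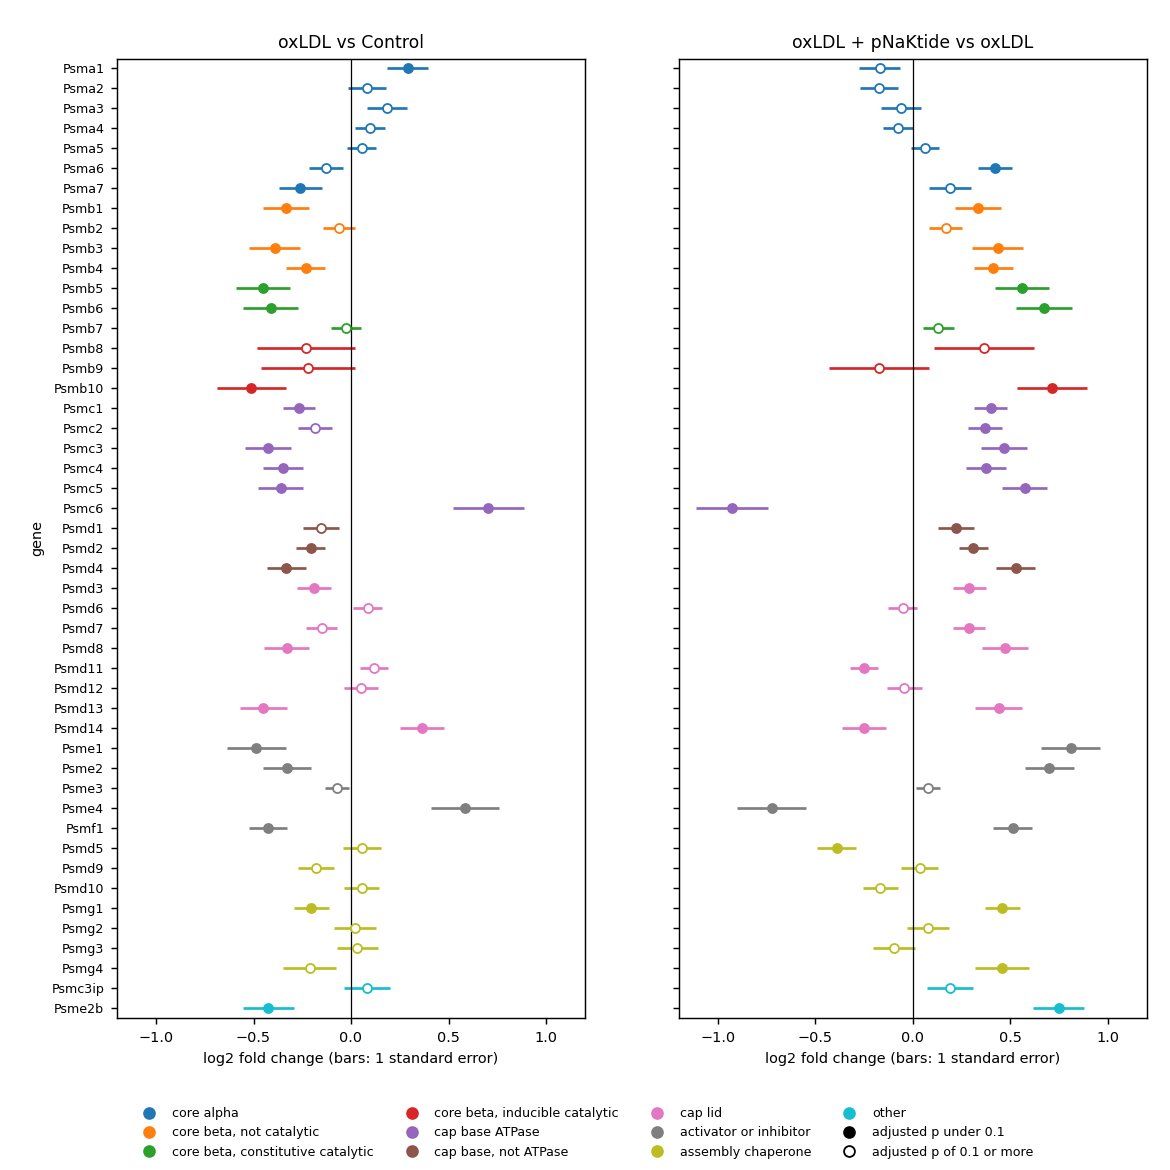
Log2 fold change with its standard error (horizontal axis) of each of the 48 genes, by class, for oxLDL against Control and for oxLDL with pNaKtide against oxLDL, with filled points for an adjusted p under 0.1. With oxLDL 21 filled points lie left of 0 and 4 right of it, and with pNaKtide added 25 lie right of 0 and 5 left of it.

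Leaving out each library in turn, 17 of the 25 calls were kept every time, Psmb5, Psmb10, Psmc5, Psmc6, Psmd4, Psmd13, Psmd14, Psme1, Psme4 and Psmf1 among them. Without Control replicate 1 and IS replicate 4, 31 members and 47.6% of all genes were called, and with the 4 alike pairs counted as 1 library each, 17 members (3 higher, 14 lower) and 25.1% of genes. Scaling by library size alone shifted the median of all genes in this comparison from 0.04 to 0.17 and left 8 members higher and 15 lower, against 35.9% of genes called, with a member median of -0.06. On that scale the log2 difference of the summed levels was 0.0060 in place of -0.13 for the core, 0.025 in place of -0.10 for the activators and -0.046 in place of -0.18 for the cap.

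The comparison of oxLDL with and without pNaKtide asks what the peptide does when the oxidant is present. With pNaKtide 25 members were higher and 5 lower, against 22.1% and 26.1% of all genes (48.3% called). The median log2 fold change was 0.29 over members and -0.09 over all genes. This comparison shares its oxLDL libraries with the one above, so the values are given side by side and no overlap is counted. Groups did not overlap for 26 members, 23 higher and 3 lower, where 28.4% of all genes did not overlap. The summed beta ring went from 936, 907, 1131, 1064 and 922 CPM to 1222, 1188, 1239, 1564 and 1359, with no overlap, and the cap from 2684 ± 152 to 3235 ± 178. With library size alone the log2 differences of the sums were 9.43e-05 in place of 0.22 for the core, 0.044 in place of 0.27 for the cap and 0.027 in place of 0.25 for the activators and inhibitor.

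In the core, 6 of 10 beta genes and 1 of 7 alpha genes rose and none fell, and with the offsets for gene length and GC content described further on, 6 of 10 and 5 of 7 rose. Psmb5 measured 129.6, 124, 123, 185 and 149 CPM with oxLDL and pNaKtide, above every library with oxLDL alone (log2 fold change 0.56, SE 0.14, edgeR adjusted p = 0.00145), and with the offsets its log2 fold change was -0.03 and not called. Psmb6 reached 187, 177, 178, 271 and 207 CPM, also without overlap (log2 fold change 0.67, SE 0.14, edgeR adjusted p = 0.000338). Psmb7 measured 135, 129, 138, 132 and 137 CPM, overlapping (log2 fold change 0.13, SE 0.08, edgeR adjusted p = 0.184). Psmb10 measured 30.6, 35.2, 35.4, 49.7 and 39.4 CPM and did not overlap (log2 fold change 0.71, SE 0.18, edgeR adjusted p = 0.00175), while Psmb8 (log2 fold change 0.37, SE 0.26, edgeR adjusted p = 0.263) and Psmb9 (log2 fold change -0.17, SE 0.26, edgeR adjusted p = 0.633) were not called. Replicate 4 was the highest library for Psmb5, Psmb6 and Psmb10, and it lay farthest from the oxLDL libraries on the first principal component (-67.4).

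Psmb3 stood at 182 ± 30.5 CPM (log2 fold change 0.44, SE 0.13, edgeR adjusted p = 0.0073) and Psmb4 at 209 ± 26.7 CPM (log2 fold change 0.41, SE 0.10, edgeR adjusted p = 0.00131), each above the oxLDL range. Psma6 was the alpha gene that rose, to 199, 205, 233, 227 and 213 CPM, with every library above those with oxLDL alone (log2 fold change 0.42, SE 0.09, edgeR adjusted p = 0.000277). It was also above Control (log2 fold change 0.29, SE 0.09, edgeR adjusted p = 0.058), a call that held in 6 of 10 fits without 1 library and was lost without Control replicate 1 or 5 or replicate 3 or 4 of oxLDL with pNaKtide (largest adjusted p = 0.161). Psma1 at 263 ± 40.4 CPM (log2 fold change -0.17, SE 0.11, edgeR adjusted p = 0.214) and Psma7 at 197 ± 14.5 CPM (log2 fold change 0.19, SE 0.11, edgeR adjusted p = 0.167) were not called.

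All 9 genes of the cap base were called, 8 higher and 1 lower. The call of Psmd1 was lost without oxLDL replicate 2 or 5 or replicate 5 of oxLDL with pNaKtide (largest edgeR adjusted p = 0.134). It was also lost with at least 1 count and, as for Psmc4 and Psmd2, with library size alone. Psmc5 measured 180.3, 177, 174, 231 and 201 CPM with oxLDL and pNaKtide, with no overlap (log2 fold change 0.57, SE 0.11, edgeR adjusted p = 0.000186). Psmd4 reached 189.7, 181, 209.9, 250.5 and 206 CPM, again without overlap (log2 fold change 0.53, SE 0.10, edgeR adjusted p = 0.000148). Psmc6 fell, to 44, 46.7, 75.8, 29.8 and 38.5 CPM (log2 fold change -0.93, SE 0.18, edgeR adjusted p = 0.000231), and replicate 3 alone lay in the oxLDL range. Without the offsets Psmc6 had the lowest log2 fold change among members, as it had the highest with oxLDL. With them it was not called in either comparison.

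In the lid 4 of 8 genes rose and 2 fell, while with the offsets 5 rose and none fell, the 2 genes that fell, Psmd11 and Psmd14, being higher at 0.51 and 0.15. Psmd13 (log2 fold change 0.44, SE 0.12, edgeR adjusted p = 0.00366) stood at 145 ± 16.6 CPM and Psmd8 (log2 fold change 0.47, SE 0.12, edgeR adjusted p = 0.00156) at 195 ± 21.1 CPM. Psmd11, a lid scaffold, fell from 121, 116, 125, 119 and 119 to 104, 99, 116, 91.5 and 94.5 CPM, where replicate 3 and oxLDL replicate 2 touched but did not cross (log2 fold change -0.25, SE 0.07, edgeR adjusted p = 0.00578). Psmd14 fell from 117 ± 8.68 to 98.5 ± 19.1 CPM (log2 fold change -0.25, SE 0.11, edgeR adjusted p = 0.0735), with overlap through replicate 3. That call was lost without oxLDL replicate 2, 3 or 5 or without replicate 2, 4 or 5 of oxLDL with pNaKtide (largest adjusted p = 0.275), and also with RLE scaling.

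Of the activators and the inhibitor, 3 genes rose and 1 fell, and Psme1 had the highest log2 fold change of all members. It reached 99.1, 91.5, 109, 144 and 115 CPM, above every oxLDL library (log2 fold change 0.81, SE 0.15, edgeR adjusted p = 0.000109), and Psme2 122, 121, 132, 179 and 142 CPM, likewise (log2 fold change 0.70, SE 0.12, edgeR adjusted p = 6.7e-05). Psme2b rose as well (log2 fold change 0.75, SE 0.13, edgeR adjusted p = 5.87e-05), with the same uncertainty about shared reads. Psmf1 measured 63.2, 57.9, 51.2, 68.2 and 65.2 CPM (log2 fold change 0.51, SE 0.10, edgeR adjusted p = 0.000147), with no overlap. Psme4 fell to 68.4, 76.6, 81.5, 39.4 and 60.0 CPM, below every oxLDL library (log2 fold change -0.72, SE 0.18, edgeR adjusted p = 0.00147). Psme3 at 152 ± 8.27 CPM was not called (log2 fold change 0.08, SE 0.06, edgeR adjusted p = 0.326).

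Of the chaperones, Psmg1 and Psmg4 rose and Psmd5 fell. Psmg1, which pairs with Psmg2 to build the alpha ring, rose from 24.8, 23.3, 26.2, 24.1 and 21.2 to 31.2, 30.3, 34.6, 34.8 and 33.5 CPM (log2 fold change 0.46, SE 0.09, edgeR adjusted p = 0.000173). Psmd5, a chaperone of the cap base, fell from 88.8, 75.3, 89.9, 82.4 and 77.6 to 64, 64.6, 68.1, 61.7 and 57.3 CPM (log2 fold change -0.39, SE 0.10, edgeR adjusted p = 0.00206), with no overlap, and was below Control too (log2 fold change -0.33, SE 0.10, edgeR adjusted p = 0.0624). The call against Control held in 4 of 10 fits without 1 library and was lost without Control replicate 2, 3 or 5 or replicate 1, 4 or 5 of oxLDL with pNaKtide (largest adjusted p = 0.203). Of the 30 calls, 28 were kept whichever library was left out. Under library size alone the median of all genes moved from -0.09 to -0.30, and 17 members were higher and 15 lower, against 51.5% of genes called, with a member median of 0.07.

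**Figure D4:**
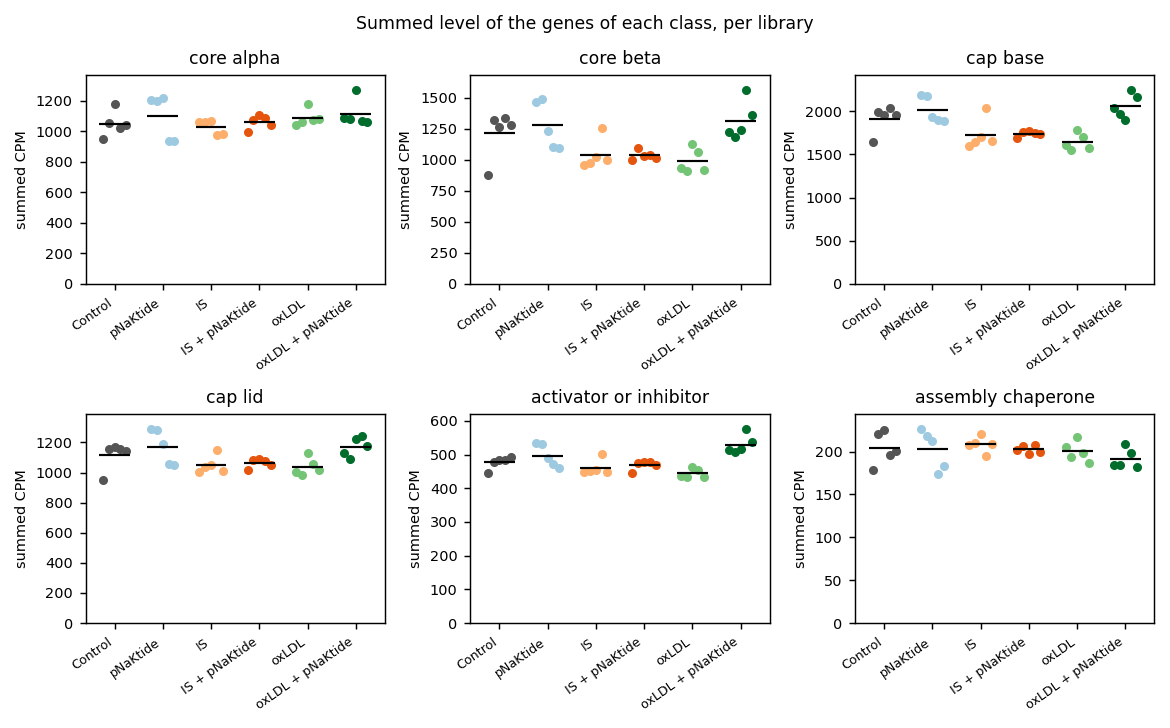
Summed CPM (vertical axis, from 0) of the genes of 6 classes in each library (points), with lines for group means. The beta ring and the cap base are low in the 5 oxLDL libraries and high in the 5 with oxLDL and pNaKtide, which do not overlap, while the alpha ring and the chaperones lie in overlapping ranges.

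With IS fewer members passed the test. Only Psmc6 was called, at 95.4, 95.1, 80.9, 51.8 and 79.1 CPM (log2 fold change 0.55, SE 0.18, edgeR adjusted p = 0.0898), where 7.94% of genes were called. An unadjusted p under 0.05 was found for 12 of 48 members and 5036 of 20139 genes, which is the same share. DESeq2 called 8 (3 higher, 5 lower; 15.7% of genes). With the offsets for length and GC content Psmc6 was not called (log2 fold change 0.05, SE 0.07, edgeR adjusted p = 0.735), and Psmd11, lower with IS (log2 fold change -0.36, SE 0.11, edgeR adjusted p = 0.0943), was the only member called, against 4.15% of genes. The median was -0.12, and IS replicate 4 lay on the Control side, at 51.8 CPM of Psmc6 against 79.1 to 95.4 in the others. Without IS replicate 4, 24 members were called (3 higher, 21 lower) with 34.5% of all genes, and without Control replicate 1 also 24, with 33.2%. Without both, 28 were called, 3 higher and 25 lower, against 45.4% of all genes. Leaving out any of the other 8 Control and IS libraries gave 0 calls, as did counting the 4 alike pairs as 1 library each. Between IS and oxLDL directly, 0 members and 0.0149% of genes were called, and by DESeq2 0 members and 0.204% of genes. There 3 members and 1047 of 20139 genes had an unadjusted p under 0.05.

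pNaKtide added to IS called no member, and 0% of genes (564 genes had an unadjusted p under 0.05). Among members 1 had an unadjusted p under 0.05, and DESeq2 called 0 (0.0695% of genes). Psmb5 stood at 107 ± 18.8 CPM with IS and 105 ± 3 with IS and pNaKtide, and Psmc6 at 80.4 ± 17.8 and 70.9 ± 2.63. Against Control, IS with pNaKtide called 0 members (0.358% of genes), with 12 members and 4022 of 20139 genes at an unadjusted p under 0.05. DESeq2 called 1 member (7.38% of genes) and gave 2 members no adjusted p. Without Control replicate 1 there were 17 calls (26.7% of genes), and without that library and IS replicate 4 there were 25 (32.4%). pNaKtide alone against Control called 0 members and 0.00497% of genes, with 0 members and 1233 of 20139 genes at an unadjusted p under 0.05. DESeq2 called 0 members and 0.283% of genes, and gave 7 members no adjusted p.

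Compared with Control, oxLDL with pNaKtide called 2 members, Psma6 higher and Psmd5 lower, against 5.2% of genes. Without Control replicate 5, or without replicate 4 of oxLDL with pNaKtide, none was called, and without its replicate 2 there were 5 (6.46% of genes). With the offsets 7 were higher and none lower, Psmd5 not among them, against 9.49% of genes. Without Control replicate 1 or 3, or replicate 3 or 5 of the treated group, 1 was called.

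The change with pNaKtide was also compared between treatments. The difference between its change with oxLDL and its change in Control was called for 16 members, 14 higher and 2 lower, where 24.6% of genes were called. With the 4 alike pairs counted as 1 library each, 2 members were called, 1 higher and 1 lower, against 12% of genes. The direction depended on the scaling, since with library size alone 12 members were called, 2 higher and 10 lower, against 26.2% of genes, and the median of all genes moved from -0.05 to -0.23. The difference was 0.65 for Psme1 (edgeR adjusted p = 0.0429), 0.52 for Psmf1 (0.0254) and -0.83 for Psmc6 (0.0375) on the log2 scale. The number of calls ran from 2 without replicate 4 of oxLDL with pNaKtide (12.5% of genes), over 3 without pNaKtide replicate 3, 4 without Control or oxLDL replicate 2, 5 without Control replicate 4 or oxLDL replicate 5, 7 without Control replicate 5, 9 without pNaKtide replicate 5 and 10 without oxLDL replicate 1, to 26 without Control replicate 1 (37.3% of genes). Against the change with IS, the difference was called for 24 members (21 higher, 3 lower; 29.3% of genes), with library size alone for 17 (10 higher, 7 lower; 32.1%), and with the 4 alike pairs summed, or without Control replicate 1 and IS replicate 4, for 20 (24.4% and 24.3%). It was 0.76 for Psme1 (edgeR adjusted p = 0.0164) and -0.74 for Psmc6 (0.0418), and 15 members were called without replicate 4 of oxLDL with pNaKtide (19.2% of genes) and 16 without IS replicate 4 (18.8%). With the offsets this difference was called for 21 members, 21 higher and 0 lower (17.9%). That against the change in Control was then called for 9, 9 higher and 0 lower (11.5%), so Psmc6 was no longer called lower in either. The difference between the changes with IS and in Control was called for no member and 0% of genes, by edgeR and by DESeq2. An unadjusted p under 0.05 was found for 0 members and 619 of 20139 genes.

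The members' changes were ordered by base composition. GC content here is the percentage of G and C bases in a gene's longest transcript. Across the 48 members Pearson's r between GC content and log2 fold change was -0.75 for oxLDL against Control, 0.69 for oxLDL with pNaKtide against oxLDL and -0.66 for IS against Control. Of 11 members under 45% GC, 4 rose and none fell with oxLDL, and of 22 members at 50% or more, none rose and 16 fell. All tested genes showed the same order, with 47.6% higher and 1.3% lower under 45% GC and 2.96% higher and 32% lower at 50% or more. The 4 members that rose had GC contents of 37.0% (Psmc6), 43.2% (Psmd14), 43.9% (Psme4) and 44.0% (Psma1), and Psmb5, Psmb10 and Psme1 had 56.6%, 56.5% and 56.2%. The slope of a library's log2 counts on GC content, per 10 points, ran from -0.365 to -0.114 in oxLDL libraries and from 0.059 to 0.570 with pNaKtide added, and Control replicate 1 was at -0.147, other Control libraries at 0.009 or above.

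**Figure D5:**
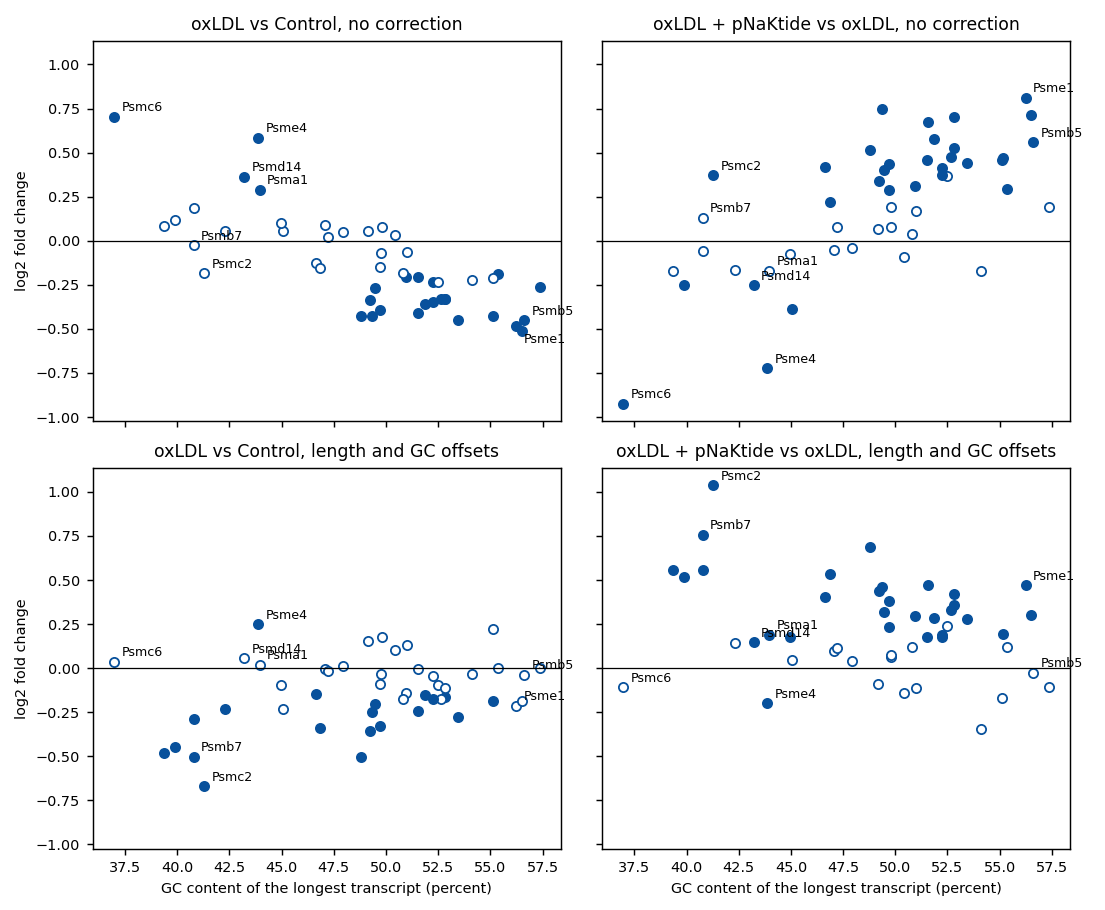
Log2 fold change (vertical axis) against the GC content of the longest transcript (horizontal axis, percent) for the 48 members, without correction (top) and with offsets for gene length and GC content (bottom), with filled points for an adjusted p under 0.1. Without correction r is -0.75 for oxLDL against Control and 0.69 for oxLDL with pNaKtide against oxLDL, and with offsets it is 0.30 and -0.30.

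With offsets that remove each library's trend over length and GC content, 20 members were called with oxLDL, 1 higher and 19 lower, against 19.9% of all genes. Of the 4 members that rose, Psme4 was kept (log2 fold change 0.25, SE 0.09, edgeR adjusted p = 0.0547), while Psmc6 (0.04), Psmd14 (0.06) and Psma1 (0.02) were not called. Of the 21 that fell, 11 were kept, among them Psmb6, Psmb3, Psmc5, Psmd4, Psmd13 and Psmf1 (log2 fold change -0.50, SE 0.12, edgeR adjusted p = 0.0139). Calls of Psmb5 (-0.04), Psmb10 (-0.19), Psme1 (-0.21), Psme2 (-0.11), Psma7, Psmb4, Psmd2, Psmd3, Psmd8 and Psmg1 were lost. Members not called before were now lower, such as Psmb7 (-0.50), Psmc2 (-0.67) and Psmd11 (-0.45), which have GC contents of 40.8%, 41.3% and 39.9%. Across the members r with GC content was then 0.30 in place of -0.75. For these genes the trend was thus reversed and not only removed, and the new calls follow the reversed trend.

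With pNaKtide added to oxLDL, the offsets gave 29 members higher and 1 lower, against 36.8% of genes called. In the core 11 of 17 were then higher, 5 of 7 alpha and 6 of 10 beta genes. Of the 25 members that rose, 22 were kept, and Psmb5 was lost. Psme4 remained lower (log2 fold change -0.20, SE 0.09, edgeR adjusted p = 0.0835), and Psmc6 (-0.11) and Psmd5 (0.04) were not called. Psmd11 and Psmd14 were called in the opposite direction. Across the members r with GC content was then -0.30 in place of 0.69, so here too the trend was reversed. Whether base composition affected the reads or the RNA itself was not tested.

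Genes that work with the proteasome, from lists written with earlier results known, were mixed. Over all genes, 36% were called with oxLDL and 48.3% when pNaKtide was added, against which the counts of these lists are to be read. Of 16 tested partners outside the Psm symbols, 4 rose and 5 fell with oxLDL, and 5 rose and 3 fell when pNaKtide was added. Adrm1, a ubiquitin receptor of the cap, fell (log2 fold change -0.36, edgeR adjusted p = 0.0177) and rose with pNaKtide (log2 fold change 0.49, edgeR adjusted p = 0.000688), and Uchl5, the deubiquitinase docked on it, rose with oxLDL (log2 fold change 0.57, edgeR adjusted p = 0.0117). Pomp, which helps assemble the core, was not called in either. Of 8 transcription regulators, 2 rose and 2 fell with oxLDL, and 2 rose and 5 fell with pNaKtide. Nfe2l1 was not called in either (log2 fold change -0.01, edgeR adjusted p = 0.944 with oxLDL), Ddi2, the protease that activates it, rose with oxLDL (log2 fold change 0.39, edgeR adjusted p = 0.0626), and Nfyc, a subunit of the CCAAT-binding factor, fell (log2 fold change -0.42, edgeR adjusted p = 0.00783).

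Of 6 ubiquitin and E1 genes, 1 rose and 2 fell with oxLDL, and 4 rose and 1 fell with pNaKtide. Uba1, the main ubiquitin-activating enzyme, fell (log2 fold change -0.50, edgeR adjusted p = 0.00892) and then rose (log2 fold change 0.60, edgeR adjusted p = 0.000307). Against the same shares of all genes, of 9 antioxidant targets none rose and 2 fell with oxLDL, and 2 rose and 4 fell with pNaKtide. Of 15 interferon response and antigen presentation genes, 3 fell with oxLDL, the peptide transporter Tap1 among them (log2 fold change -0.41, edgeR adjusted p = 0.0544). With pNaKtide 2 of the 15 rose and 5 fell.

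Cell type markers were measured in the same libraries. Of 10 adipocyte markers, none rose and 3 fell with oxLDL, where 36% of all genes were called, and 6 rose and none fell when pNaKtide was added, where 48.3% were called. With IS, 4 of the 10 fell and none rose, where 7.94% of genes were called. Their summed level ran from 12863 to 16300 CPM in Control, 12264 to 16343 with oxLDL, 15303 to 17444 with oxLDL and pNaKtide and 10797 to 13641 with IS. Of 8 preadipocyte and fibroblast markers 2 rose and 2 fell with oxLDL, and 1 rose and 3 fell with pNaKtide, while 2 fell with IS. Their sums ran from 4907 to 6190 CPM in Control, 4161 to 4929 with oxLDL, 4050 to 5666 with oxLDL and pNaKtide and 3196 to 4990 with IS. Of 6 macrophage markers 3 were tested and 1 fell with oxLDL, at sums under 13 CPM in these groups, and of 4 endothelial markers 1 was tested and not called. Their part in the members' changes was not tested.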

How the data were processed

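RNA was sequenced from 30 libraries of 3T3-L1 cells, 5 in each of 6 groups, which were taken from the sample titles. The authors trimmed paired reads with Trimmomatic 0.38, aligned them to GRCm38 with HISAT2 2.1.0 and counted reads per gene with GenomicAlignments, giving the deposited counts. The deposited normalized signal holds the counts over 1 scaling factor for each library, and the authors' FPKM are these values per kilobase; DESeq2 1.20.0 is named in the submitters' processing notes. Neither the strand setting nor the gene annotation behind the counting is stated in the sources used here. The counts gave all tests, the FPKM gave levels between genes and 1 alternative, and the signal was checked but gave no result.

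Genes with more than 14 counts over all libraries (20139) were scaled by TMM and fitted in edgeR 4.0.16 with the robust quasi-likelihood model, all 6 groups together. P-values were adjusted by the Benjamini-Hochberg (BH) method over all genes tested, with a threshold of 0.1. A standard error is the absolute log2 fold change divided by the square root of F. CPM used TMM factors, and log2 CPM a prior count of 2. Offsets were splines (basis 6, mgcv 1.9.3) of each library's log counts on gene length and GC content. R 4.3.3, limma 3.58.1, DESeq2 1.42.0 and Python 3.11.15 with numpy 2.4.6 and pandas 2.3.3 were used, and the fit was tested on simulated data. Libraries held 6945498 to 15159877 counts, and precision was lowest for genes with few counts such as Psmb8 and Psmb9. All 60 pairs of libraries within groups had a chi-square per degree of freedom above the 1 of pure counting noise, but 4 pairs lay under 2 (lowest 1.301, others up to 57.1), and these were summed in 1 alternative chosen after seeing the data, leaving 26 libraries.

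Named with values were the catalytic and inducible subunits, Psme1 to Psme4 and Psmf1. In every other class the member with the smallest p in oxLDL against Control and in oxLDL with pNaKtide against oxLDL was added, as was any member called against the sign of its class median. Other members are mentioned where a count or an alternative turns on them and were chosen after their values were seen. The members and gene lists were chosen with earlier results of these data known. Alternatives were other scalings, filters on low counts, DESeq2, limma on log2(FPKM + 1), a replicate block, the offsets, leaving out Control replicate 1 with IS replicate 4, and leaving out each library.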

Additional observations from a re-analysis of the deposited data

Results flagged for a closer look

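In each group of 5 the highest and lowest library of 26 named members was set against Dixon's critical value of 0.71. Chance flags about 1 in 20 groups, 5% of tests, and here 22 of 156 (14.1%) were flagged. The members share the same libraries, so these tests are not independent, and most flags came from IS replicate 4 and Control replicate 1. IS replicate 4 stood apart in 16 members. It was above the other IS libraries in Psmb10 at 42.8 CPM (others 20.3 to 26.2), Psmb3 at 161 CPM, Psmb4 at 191 CPM, Psmb5 at 139 CPM, Psmb6 at 196 CPM, Psmc5 at 203 CPM, Psmd13 at 151 CPM, Psmd4 at 191 CPM and Psmd8 at 184 CPM. It was also above them in Psme1 at 110.4 CPM, Psme2 at 127 CPM, Psme2b at 98.7 CPM, Psmf1 at 62.2 CPM and Psmg1 at 33.4 CPM. It was below them in Psmd14 at 84.6 CPM (others 113 to 121) and Psme4 at 57.1 CPM (others 101 to 117).

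Control replicate 1 was below the other Control libraries in Psma7 at 156 CPM, Psmb3 at 114 CPM, Psmd13 at 102 CPM and Psmf1 at 44.9 CPM. Replicate 4 of oxLDL with pNaKtide was above the others of its group in Psmb8 at 5.46 CPM, and pNaKtide replicate 3 in Psmc6 at 76.2 CPM (others 43.2 to 50.4).

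The change with pNaKtide differed between cells with oxLDL and Control cells by a test of the difference itself for 13 named members. On the log2 scale the difference was 0.65 for Psme1, 0.53 for Psme2b, 0.53 for Psmb6, 0.52 for Psmf1, 0.49 for Psmb5, 0.47 for Psme2, 0.45 for Psmc5, 0.45 for Psmd13, 0.39 for Psmd4, 0.33 for Psma6, 0.31 for Psmg1, -0.25 for Psmd11 and -0.83 for Psmc6. Their edgeR adjusted p-values (BH) ran from 0.0254 to 0.0933. With the 4 most alike pairs of libraries each counted as 1, 2 of all 48 members (12.0% of genes) were called in place of 16 (24.6%). With library size alone 12 were called, 2 higher and 10 lower (26.2%), so the direction depended on the scaling. With the offsets 9 were called, 9 higher and 0 lower (11.5%), so Psmd11 and Psmc6 were no longer called lower.

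It differed between cells with oxLDL and cells with IS for 18 named members. The difference was 0.79 for Psme2b, 0.76 for Psme1, 0.75 for Psmb10, 0.68 for Psmb6, 0.65 for Psme2, 0.60 for Psmc5, 0.58 for Psmb5, 0.50 for Psmf1, 0.45 for Psmb3, 0.44 for Psmd4, 0.44 for Psmb4, 0.42 for Psmd13, 0.42 for Psmd8, 0.42 for Psmg1, 0.36 for Psma6, -0.24 for Psmd11, -0.69 for Psme4 and -0.74 for Psmc6. Their edgeR adjusted p-values (BH) ran from 0.0101 to 0.0865. IS replicate 4 is among the libraries of this contrast, and 16 members (18.8% of genes) were called without it in place of 24 (29.3%). With the offsets 21 members were called, 21 higher and 0 lower (17.9%), so Psmd11, Psme4 and Psmc6 were no longer called lower.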

How the results depend on the processing

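Whether equal replicate numbers pair the samples is not known, and the main fit did not use them. Same-number correlations of deviations from the group means ran from -0.66 to 0.79, and in 0 of 15 pairs of groups were all above 0.1. Their mean was above that of other numbers in some pairs, as for IS and oxLDL with pNaKtide (0.32 against -0.05). It was below in others, as for oxLDL and pNaKtide alone (-0.16 against 0.04), so pairing is not excluded. Percentages after a count are the share of all genes called in the same fit. With a replicate block, 26 members (38.8%) were called in oxLDL against Control, 32 (49.6%) in oxLDL with pNaKtide against oxLDL, 5 (17.0%) in IS against Control, 4 (8.21%) in oxLDL with pNaKtide against Control and 2 (6.64%) in IS with pNaKtide against Control. Calls in IS against Control, 1 as reported (7.94%), were 5 (12.6%) with library size alone, 5 (20.96%) with more than 14 counts in every library, 2 (13.0%) with limma, 8 (15.7%) with DESeq2, 0 (1.86%) with at least 1 count and 28 (45.4%) without Control replicate 1 and IS replicate 4. In oxLDL with pNaKtide against Control, 2 as reported (5.2%), they were 4 (5.17%) with RLE, 4 (12.0%) with limma, 5 (14.4%) with more than 14 counts in every library, 5 (9.04%) with DESeq2, 7 (9.49%) with the offsets, 0 (2.24%) with at least 1 count and 1 (6.39%) without those libraries. In IS with pNaKtide against Control, 0 as reported (0.358%), they were 1 (7.38%) with DESeq2 and 25 (32.4%) without those libraries. In oxLDL with pNaKtide against oxLDL, 30 as reported (48.3%), they were 32 (50.7%) without those libraries. The difference of the pNaKtide changes with oxLDL and in Control, 16 as reported (14 higher, 2 lower; 24.6%), gave 26 with more than 14 counts in every library (20 higher, 6 lower; 46.4%), 25 with DESeq2 (21 and 4; 29.2%), 9 with the offsets (9 and 0; 11.5%), 27 without those libraries (23 and 4; 40.0%) and 12 with library size alone (2 and 10; 26.2%), where the balance turned around. For the difference between oxLDL and IS, 24 as reported (21 higher, 3 lower, 29.3%), library size alone gave 17 (10 and 7, 32.1%), and leaving out those libraries gave 20 (18 and 2, 24.3%). The offsets gave 21 (21 and 0, 17.9%).

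With the 4 most alike pairs of libraries summed, an alternative chosen after seeing the data, 17 members (25.1%) were called in oxLDL against Control, 30 (47.6%) in oxLDL with pNaKtide against oxLDL, 0 (0.134%) in IS against Control, 2 (12.0%) for the difference of the pNaKtide changes with oxLDL and in Control and 20 (18 higher and 2 lower, 24.4%) for that with oxLDL and with IS. Named members that lost their call in oxLDL against Control were then Psma1, Psma7, Psmb4, Psmb6, Psmd8, Psme2 and Psmg1, and Psmd14 lost its call in oxLDL with pNaKtide against oxLDL, as it did with RLE.

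Leaving out each library in turn gave 17 to 31 calls in oxLDL against Control (24.7% to 45.9% of genes), 28 to 33 in oxLDL with pNaKtide against oxLDL (41.4% to 48.7%), 0 to 24 in IS against Control (0.0745% to 34.5%), 0 to 5 in oxLDL with pNaKtide against Control (2.51% to 6.46%) and 0 to 17 in IS with pNaKtide against Control (0.00993% to 26.7%). It gave 2 to 26 for the difference of the pNaKtide changes with oxLDL and in Control (10.5% to 37.3%), and 15 to 25 for that with oxLDL and with IS (18.8% to 32.7%). The summed log2 differences under library size alone were, for core, cap and activators, 0.0060, -0.046 and 0.025 in oxLDL against Control, and 9.43e-05, 0.044 and 0.027 in oxLDL with pNaKtide against oxLDL.

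Some named members changed sign. With the offsets, log2 fold changes in oxLDL with pNaKtide against oxLDL were 0.19 for Psma1, -0.026 for Psmb5, 0.51 for Psmd11, 0.15 for Psmd14 and 0.044 for Psmd5, and Psma7 was at 0.0038 and Psmd11 at -0.45 in oxLDL against Control and Psmd11 at -0.36 in IS against Control. With library size alone, Psme3 was at -0.15 in oxLDL with pNaKtide against oxLDL. The cause was not tested. Of the summary values under alternatives, 209 were labelled the same, 57 moved and 2 reversed. For counts of called members this label compared the number called, within a factor of 1.5, and not the balance of directions. The difference of the pNaKtide changes with oxLDL and in Control under library size alone is therefore among the 209. Psmb8 and Psmb9 had low counts and standard errors of 0.25 and 0.24 in oxLDL against Control, and depth was not tested as the reason that neither was called.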

Other observations

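The 4 pseudogenes whose symbols match were Psmb6-ps2 with 627 counts over the 30 libraries, Psmb5-ps with 513, Psmb6-ps with 31 and Psmb7-ps2 with 4, set against 40287 counts of Psmb5. Reads of a processed copy and of its parent gene can be hard to tell apart.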
